A study of Rattus norvegicus with 2 samples.

Results

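The proteins of the mitochondrial ribosome were followed in cultured stromal cells from rat bone marrow, which attach to plastic and can form bone, fat and cartilage cells. The members were the genes whose current rat symbol begins with Mrpl or Mrps and a number, found by matching the probes' RefSeq accessions to a rat gene table. This gave 66 genes of 15168 named genes on the array, 42 of the large subunit and 24 of the small subunit by symbol, measured by 77 probes. The table lists 78 protein-coding symbols of this form, and 12 of them received no probe and were not analysed here. The control array held RNA of normal Sprague-Dawley rats (wild type). The transgenic array held RNA of double transgenic rats on the same Sprague-Dawley background that carry 2 human genes, angiotensinogen and renin. Wells of 6-well plates received 150000 cells each in both groups, the cells were taken before they reached confluence, and total RNA was labelled with Cy3. The labels give no promoter for the transgenes, no age and no number of animals. Each group had 1 array, so the variation among animals or cultures is unknown, and there is no test and no p-value. A 2-fold size rule took the place of a test, and every value describes these 2 arrays.

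The mitochondrial ribosome makes the small set of proteins that mitochondrial DNA encodes, all of them core parts of the respiratory chain and ATP synthase. Its RNAs are transcribed inside the organelle, whereas all of its proteins are encoded in the nucleus, made on cytosolic ribosomes and imported. Many descend from the ribosome of the bacterial ancestor, and others were added in the course of mitochondrial evolution. The large subunit forms peptide bonds and guides the new chain to the inner membrane, and the small subunit binds and decodes the messenger RNA. A symbol does not always give the position: Mrps18a and Mrps30 sit in the large subunit of the assembled mammalian ribosome.

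The upstream sequences of 5 members are shown because the results turn on them: Mrpl52 and Mrpl1 were the members past 2-fold, and Mrps18a, Mrps18b and Mrps18c are 3 paralogues of bacterial S18 that differed from one another. Each is the 250 bases before the annotated start, 5′ to 3′, from RefSeq in the assembly GRCr8. Capitals mark matches, on either strand, to the letters GCGCA, any base, then GCGC (the NRF-1 motif), CCGGAAG (an Ets motif, as bound by GABP) or AAGATGG (part of the YY1 motif).
Mrpl52, chr15:31852686-31852935, plus strand: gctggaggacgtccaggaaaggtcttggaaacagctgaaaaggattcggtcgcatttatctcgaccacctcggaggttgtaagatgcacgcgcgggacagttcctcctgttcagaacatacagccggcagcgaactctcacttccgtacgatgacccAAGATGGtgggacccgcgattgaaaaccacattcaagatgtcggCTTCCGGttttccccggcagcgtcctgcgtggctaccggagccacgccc
Mrpl1, chr14:13663522-13663771, minus strand: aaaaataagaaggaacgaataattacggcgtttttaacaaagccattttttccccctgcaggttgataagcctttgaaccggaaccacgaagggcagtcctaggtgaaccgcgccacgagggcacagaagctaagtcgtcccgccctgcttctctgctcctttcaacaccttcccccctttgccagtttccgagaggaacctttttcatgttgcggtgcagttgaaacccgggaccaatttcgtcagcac
Mrps18a, chr9:22367381-22367630, minus strand: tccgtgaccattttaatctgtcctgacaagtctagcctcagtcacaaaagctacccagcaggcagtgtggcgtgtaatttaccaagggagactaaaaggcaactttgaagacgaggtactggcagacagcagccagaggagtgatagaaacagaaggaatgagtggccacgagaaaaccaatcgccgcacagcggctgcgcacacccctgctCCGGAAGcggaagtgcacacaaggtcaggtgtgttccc
Mrps18b, chr20:2842756-2843005, plus strand: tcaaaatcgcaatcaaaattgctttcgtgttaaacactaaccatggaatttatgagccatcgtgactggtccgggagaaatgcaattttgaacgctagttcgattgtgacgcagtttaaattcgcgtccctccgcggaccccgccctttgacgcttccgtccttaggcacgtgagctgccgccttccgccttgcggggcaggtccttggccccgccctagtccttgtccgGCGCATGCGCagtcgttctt
Mrps18c, chr14:9122907-9123156, minus strand: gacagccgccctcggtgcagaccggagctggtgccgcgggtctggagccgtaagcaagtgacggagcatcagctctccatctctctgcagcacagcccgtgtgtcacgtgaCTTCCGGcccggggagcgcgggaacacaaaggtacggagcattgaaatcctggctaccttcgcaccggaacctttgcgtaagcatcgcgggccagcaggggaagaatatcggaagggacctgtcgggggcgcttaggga

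The group as a whole lay close to the bulk of genes. All 66 members were well above background on both arrays, so no member was lost to the filter on dim probes. Each difference is transgenic minus control in log2 signal after each array's 75th percentile was subtracted. Of the 66 members, 1 was at least 2-fold higher and 1 at least 2-fold lower, and 64 (97.0%) lay within 2-fold. Over all 15501 genes above background on both arrays, 10.5% were at least 2-fold higher, 10.3% lower and 20.8% either way. All-gene figures here and below also count each accession without a symbol as a gene, which gives 26912 entries before the filter. The members all carry symbols, so the pools differ in kind. Shares over named genes only were not computed. Among genes with a mean signal above the median, where 58 of the members fell, 17.9% were past 2-fold either way. The members' median difference was -0.22 log2, beside -0.07 log2 over all genes, with 43 members below and 23 above that all-gene median. Their interquartile range was 0.50 log2, beside 0.94 log2 over all genes and 0.88 log2 over the brighter genes. No test of these contrasts was possible with 1 array a group.

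**Figure D1:**
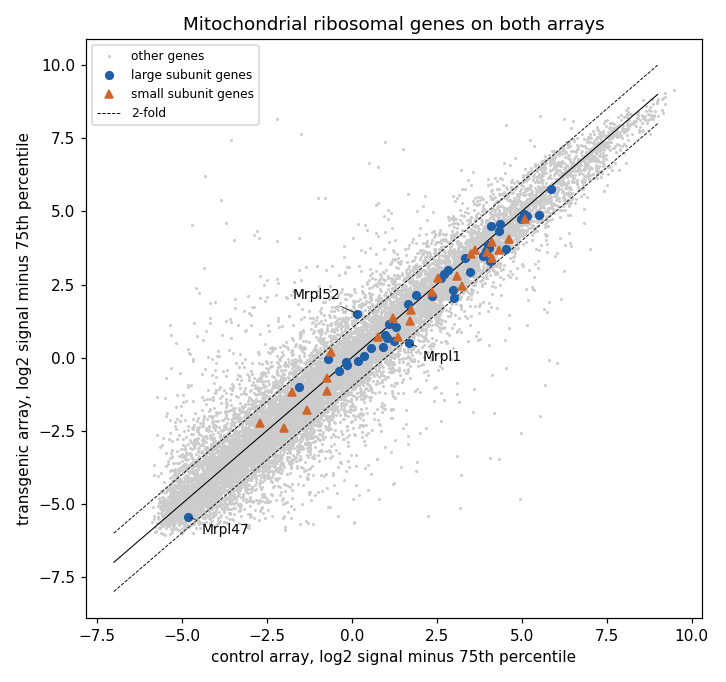
Log2 signal minus the array's 75th percentile on the control array (horizontal) and the transgenic array (vertical) for all genes above background on both (grey), large subunit genes (circles) and small subunit genes (triangles). Dashed lines mark 2-fold; Mrpl52 and Mrpl1 are the members outside them, and Mrpl47 is the dimmest member.

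The error available was technical, and it covers neither the variation among cultures nor that between probes of a gene. Per difference, the error computed by the scanner software had a median of 0.20 log2 over the members, and 23 of the 66 differences were smaller than their error. The software's error per spot was averaged, so it does not shrink with more spots: Mrpl10 (1 spot) and Mrps18c (10 spots) both had 0.20 log2. Apart from Mrpl47 at 0.37 log2, every member had 0.20 or 0.21 log2. The error thus acts nearly as a fixed limit and not as each gene's own noise. Signals of the members ran from 25 to 58198 units, with background subtracted. By size, 29 members differed by less than 0.25 log2, 17 by 0.25 to 0.5 log2, and 18 by 0.5 to 1 log2. With a 1.5-fold size rule 3 members were higher and 12 lower, beside 19.1% and 22.5% of all genes.

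The direction of the whole group rested on scaling. When the arrays were scaled on their E1A spike-in probes, foreign transcripts added in fixed amount during labelling, every gene moved up by 1.08 log2 and the members' median became 0.87 log2, beside 1.01 log2 over all genes. Then 23 members were at least 2-fold higher and 0 lower, where 50.8% and 2.21% of all genes were. Mrpl52 came to 2.42 log2 and Mrpl1 to -0.11 log2 on that scale. All further values are set against the array's other genes, and any sign between -1.08 and 0 log2 turns under spike-in scaling. In bulk RNA, fewer cells of a type and less RNA per cell cannot be told apart.

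The large and small subunit had medians close to each other. The 42 large subunit genes had a median difference of -0.22 log2 with quartiles of -0.39 and 0.07, and 29 of them lay below 0. The 24 small subunit genes had a median of -0.23 log2 with quartiles of -0.46 and 0.04, and 16 lay below 0. The medians were 0.01 log2 apart, a gap that was not tested and that a shift of a whole array would not change. The 2 members past 2-fold were both of the large subunit (4.76% of its 42 genes). In the small subunit 0 of 24 genes were past 2-fold, and over all genes 20.8% were. Counts of 2 and 0 are too small to tell the subunits apart. With Mrps18a and Mrps30 counted in the large subunit, where the assembled ribosome holds them, the medians were -0.19 and -0.33 log2, a gap of 0.13 log2.

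**Figure D2:**
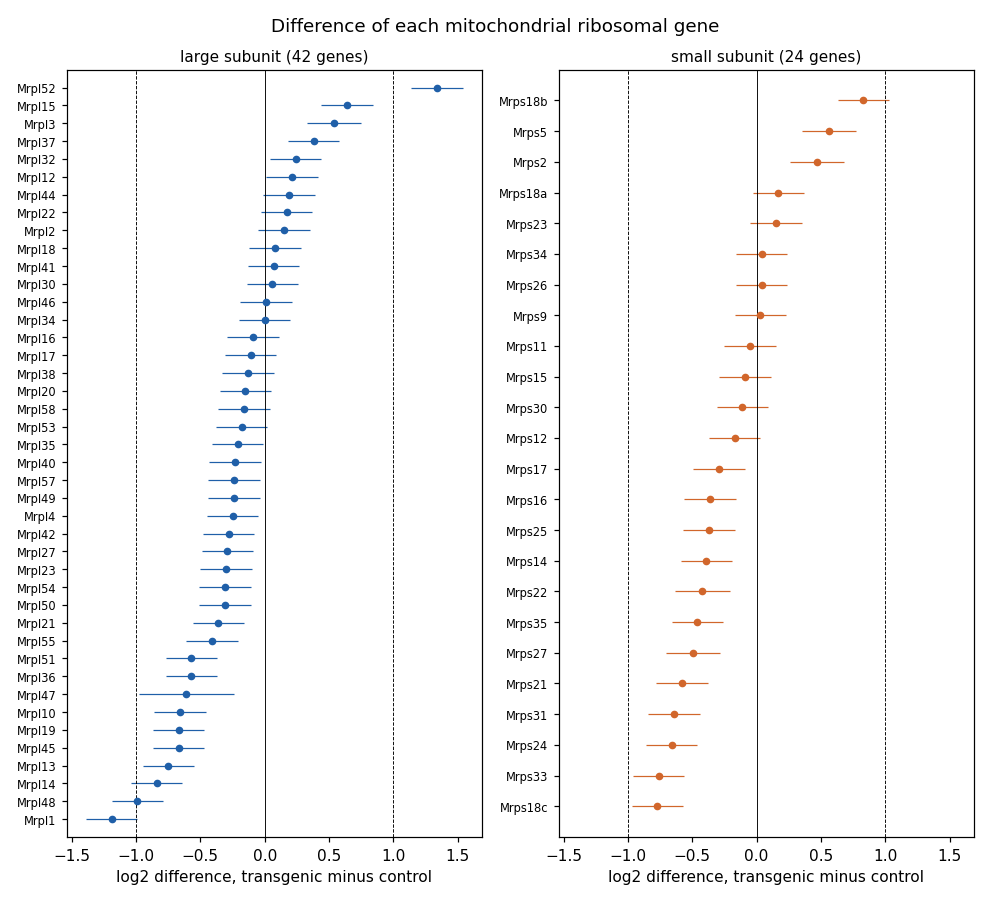
Log2 difference, transgenic minus control, of each of the 42 large subunit genes (left) and 24 small subunit genes (right), ordered by value. Points are the brightest probe of each gene, bars the scanner software's error of the difference, and dashed lines 2-fold. Large subunit genes ran from -1.19 log2 (Mrpl1) to 1.34 log2 (Mrpl52), and small subunit genes from -0.77 log2 (Mrps18c) to 0.83 log2 (Mrps18b).

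Mrpl52, a mitochondria-specific protein of the large subunit, had the largest difference. Its signal was 1014 units in control and 3059 in transgenic, which is 1.34 log2 higher (2.53-fold) after scaling. The software's error was 0.20 log2, and the probe had 2 spots per array. The processed values deposited by the authors gave 1.24 log2 for it. The gene annotated next to it in GRCr8, Slc7a7, an amino acid transporter subunit, differed by 2.72 log2, and its other neighbour, Lrp10, had no value.

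Mrpl1, whose protein forms the mobile L1 stalk beside the site where spent transfer RNA leaves, had the lowest value. Its signal was 2914 units in control and 1520 in transgenic, or -1.19 log2 (2.29-fold lower). The software's error was 0.20 log2, and the probe had 2 spots per array. The authors' processed values gave -1.18 log2. Its neighbour Cnot6l differed by -0.05 log2. Mrpl48, a protein of the central protuberance, lay just inside the limit at -0.99 log2 (1.99-fold lower), with 7350 and 4404 units, beside Coa4 at -0.38 log2 and Rab6a at 0.14 log2. On the high side the member nearest to the limit was Mrps18b at 0.83 log2.

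The landmarks of the large subunit are described in turn, in role groups drawn up after the values were seen. In groups this small a count of 0 past 2-fold says little, since 20.8% of all genes were. The flexible stalk recruits translation factors to the ribosome. Its base protein Mrpl10 read 41615 units in control and 31433 in transgenic (-0.66 log2), and its factor-binding protein Mrpl12 read 18710 and 25867 units (0.21 log2). The pair lay on either side of 0, in each case with an error of 0.20 log2.

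Of 7 genes of the central protuberance, the crown of the large subunit that faces the small subunit's head, 0 were past 2-fold. Over all genes 20.8% were. Of the 7, 5 lay below 0, and the median was -0.16 log2. Mrpl48 stood lowest of these, and the others ran from -0.29 log2 (Mrpl27, 14811 and 14460 units) to 0.08 log2 (Mrpl18, 5643 and 7105 units). Among them, Mrpl58, a peptidyl-tRNA hydrolase built into the ribosome, differed by -0.16 log2 with 14569 units in control and 15561 in transgenic. Apart from Mrpl48, these differences were within about 1.5 times the error of 0.20 log2.

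Around the tunnel through which the new protein leaves, 6 genes had a median of -0.28 log2. Of these 0 were past 2-fold, beside 20.8% of all genes. Mrpl45, which lies at the tunnel's mouth against the inner membrane, had 7101 units in control and 5308 in transgenic (-0.67 log2). Mrpl22 had 6389 and 8563 units (0.17 log2), the only value above 0 in this group. Mrpl47, a homologue of bacterial L29, was the dimmest member, at 31.9 and 25 units. Its difference of -0.61 log2 had an error of 0.37 log2, and the authors' processed values put it at -0.11 log2.

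Other large subunit genes low in the order have counterparts in bacteria. Mrpl14, to which the assembly factor Malsu1 binds, read 21252 units in control and 14160 in transgenic (-0.84 log2). Mrpl13 read 15106 and 10676 units (-0.75 log2), and Mrpl19 read 2145 and 1605 units (-0.67 log2). High in the order were Mrpl15 with 562 and 1046 units (0.64 log2), Mrpl3, which reaches towards the peptidyl transferase centre, with 311 and 539 units (0.54 log2), and Mrpl37, a mitochondria-specific protein, with 15526 and 24181 units (0.38 log2). All were within 2-fold, and each differed by more than its error, which was 0.20 or 0.21 log2.

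Mrpl32, at 3373 and 4757 units (0.24 log2), and Mrpl44, a protein with a ribonuclease III-like fold at 2861 and 3884 units (0.19 log2), completed the upper end with Mrpl12. Their differences were about as large as the error.

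In the small subunit the 3 S18 paralogues spread widest. They occupy different places: Mrps18c takes the position of bacterial S18, Mrps18b lies elsewhere in the small subunit, and Mrps18a is in the large subunit. Mrps18b read 587 units in control and 1242 in transgenic (0.83 log2), Mrps18a 5261 and 7047 units (0.17 log2), and Mrps18c 8475 and 5938 units (-0.77 log2), each with an error of 0.20 log2. Mrps18b and Mrps18c were the highest and the lowest small subunit genes, so the paralogues bounded the range of the subunit.

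Near Mrps18b at the upper end were Mrps5, a homologue of bacterial S5, at 270 and 474 units (0.56 log2), and Mrps2, a homologue of bacterial S2, at 139 and 229 units (0.47 log2). At the lower end were the mitochondria-specific Mrps33 at 15975 and 11289 units (-0.76 log2), Mrps24, the counterpart of bacterial S3, at 18383 and 13912 units (-0.66 log2), and Mrps31 at 2313 and 1767 units (-0.64 log2). Mrps21 followed at 22593 and 18006 units (-0.58 log2). Each exceeded its error of 0.20 or 0.21 log2 and none reached 2-fold. Mrps12, a protein of the decoding centre, read 15719 and 16699 units (-0.17 log2), and Mrps30 read 4673 and 5165 units (-0.11 log2), both inside their error.

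Variants of several members cause inherited deficiency of the respiratory chain in humans. A list of 10 genes of that kind was also drawn up after the values were seen. Their median was 0.10 log2 and 0 of 10 were past 2-fold, beside 20.8% of all genes. Mrpl3 (0.54 log2) was highest and Mrps22 lowest, at 228 and 203 units (-0.42 log2). Mrps34 (0.04 log2) and Mrps16 (-0.36 log2) lay between them.

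The members were also grouped by ancestry. The 37 genes with a bacterial counterpart had a median of -0.15 log2, with 0 higher and 1 lower by 2-fold, and the 29 mitochondria-specific genes a median of -0.24 log2, with 1 higher and 0 lower. With Mrps24 moved to the bacterial set the medians were -0.16 and -0.24 log2. The gap was 0.09 log2 in the first grouping and 0.08 log2 in the second, and was not tested.

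For 11 members more than 1 probe was available, and 9 had a pair of probes above background on both arrays. Within each of these 9 the signs were the same, and the median gap between the probes was 0.24 log2. In 5 of the 9 the gap was larger than the error. A difference past its error can thus still lie within the gap between probes. Mrpl35 had the largest gap, 0.99 log2: its brighter probe read 1799 units in control and 1860 in transgenic (-0.21 log2), and its dimmer probe 1087 and 568 units (-1.19 log2), past 2-fold. The value of Mrpl35 is thus uncertain, and it would be a member at least 2-fold lower on that probe. The second probes of Mrpl30 (3.85 and 3.99 units) and Mrpl50 (4.31 and 6.76 units) were not well above background and carry no difference.

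**Figure D3:**
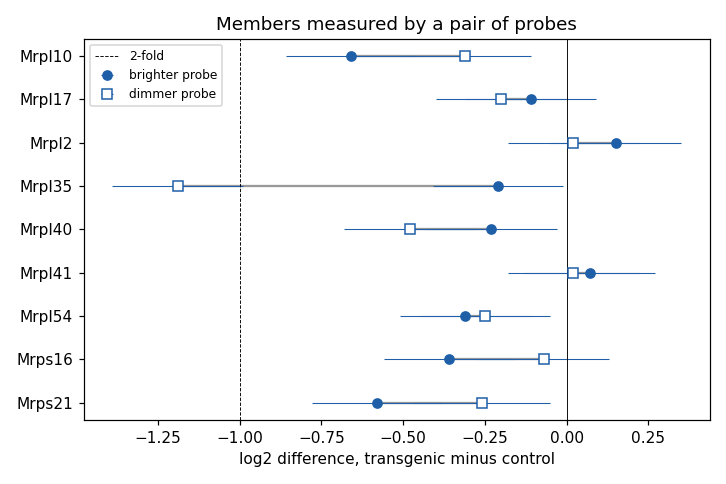
Log2 difference, transgenic minus control, for the 9 members with a pair of probes above background on both arrays; filled circles are the brighter probe, open squares the dimmer one, bars the scanner software's error, and the dashed line is 2-fold lower. The pairs lie within 0.35 log2 of each other except Mrpl35, where 0.99 log2 separates them.

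Ribosomal proteins of the mitochondrial ribosome that carry other names were measured too. Of 5, 0 were past 2-fold, beside 20.8% of all genes, and the median was -0.33 log2. Ptcd3, which contacts messenger RNA on the small subunit, had 3236 units in control and 2083 in transgenic (-0.89 log2), and Chchd1 13146 and 8857 units (-0.82 log2). Gadd45gip1 of the large subunit differed by -0.33 log2, Aurkaip1 of the small subunit by -0.27 log2, and the GTP-binding Dap3 by 0.25 log2.

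The factors that work on the ribosome lay in the same range. Of 13 measured mitochondrial translation factors, 0 were past 2-fold, beside 20.8% of all genes. Their median was -0.35 log2, and 11 lay below 0. Slirp, which with Lrpprc stabilises mitochondrial messenger RNA, read 23054 and 15614 units (-0.82 log2), and Lrpprc 2394 and 1833 units (-0.64 log2). The initiation factor Mtif2 had 656 and 455 units (-0.78 log2) and the recycling factor Mrrf 69.8 and 132 units (0.66 log2).

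Assembly factors, which process ribosomal RNA or help the subunits form, spread more widely around 0. Of 22 measured, 1 passed 2-fold upwards and 1 downwards (9.09%, beside 20.8% of all genes), and the median was -0.02 log2. Rcc1l read 37.2 units in control and 137 in transgenic (1.63 log2). Gtpbp10, a GTPase of large subunit assembly, read 1642 and 757 units (-1.37 log2). Trub2, a pseudouridine synthase, differed by 0.78 log2 and Mterf3 by -0.84 log2.

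Of 16 mitochondrial aminoacyl-tRNA synthetases and related enzymes, which charge transfer RNA for the ribosome, 2 passed 2-fold upwards and 1 downwards. That share, 18.8%, was close to the 20.8% of all genes, and the median was -0.17 log2. Vars2 read 88.9 and 241 units (1.18 log2), Fars2 126 and 311 units (1.05 log2), Rars2 2375 and 1343 units (-1.08 log2) and Hars2 584 and 364 units (-0.94 log2). Aars2 was well above background in transgenic only, at 15.9 and 47.2 units, at least 2.49-fold higher.

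Genes that control mitochondrial transcription and biogenesis were measured as well. Of 11 measured on both arrays, 1 (9.09%) was at least 2-fold higher, beside 10.5% of all genes. That gene was Myc, a growth-promoting transcription factor, at 581 and 2830 units (2.03 log2). No other of the 11 had a larger difference than Mrpl52. The nuclear receptor Esrra had 15097 and 34135 units (0.92 log2), Tfam, which packages and transcribes mitochondrial DNA, 1839 and 3213 units (0.55 log2), and Mterf1 differed by -0.46 log2. Ppargc1a, a coactivator of mitochondrial biogenesis, was well above background in transgenic only (3.64 and 77.4 units), at least 4.24-fold higher, and Mterf2 in control only (50.1 and 6.4 units), at least 3.75-fold lower in transgenic. The list's median over the 11 was -0.10 log2.

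**Figure D4:**
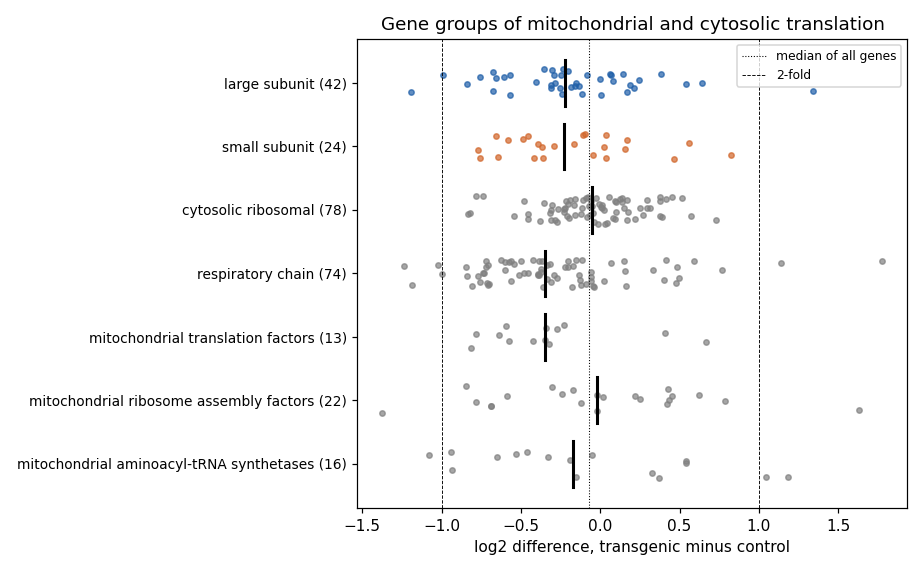
Log2 difference, transgenic minus control, of each gene above background on both arrays in 7 gene groups; thick bars are medians, dashed lines 2-fold and the dotted line the median of all genes. Large and small subunit genes of the mitochondrial ribosome have medians of -0.22 and -0.23 log2, between the cytosolic ribosomal genes at -0.05 and the respiratory chain genes at -0.35.

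Set beside related machines, the members lay between the cytosolic ribosome and the respiratory chain. Of 78 cytosolic ribosomal protein genes on both arrays 0 were past 2-fold, with a median of -0.05 log2 and an interquartile range of 0.36 log2. A further gene of that list, Rpl39l1, was well above background in control only (279 and 4.19 units), at least 20.9-fold lower in transgenic, and Rpl3l in transgenic only (5.51 and 60.5 units), at least 3.32-fold higher. Among the 78, the lowest values were those of Rpl22l1 (-0.83 log2) and Rpl39 (-0.82 log2). Of 74 nuclear genes for respiratory chain and ATP synthase subunits 2 passed 2-fold upwards and 3 downwards (6.76%, beside 20.8% of all genes). Their median was -0.35 log2 and their interquartile range 0.54 log2. Cox6a2, a muscle form of a cytochrome oxidase subunit, was highest (1.78 log2), and Cox8b (-1.24 log2) and Uqcrb (-1.18 log2) were lowest. These differences between groups were not tested.

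The promoters were described over the annotated 300 bases, 250 before and 50 after the start, which 54 of the 66 members had in the RefSeq table. The Ets letters occurred in 35.2% of the members' promoters and in 11.2% of 19005 protein-coding promoters of the same length. AAGATGG was found in 24.1% and 7.6%, the NRF-1 letters in 16.7% and 6.1%, and TATAAA in 7 of 54 members and 13.1% of all. The Ets, YY1 or NRF-1 letters stood in 30 of 54 members (55.6%) and in 4175 of the 19005, and different motifs overlapped in 0 of the members. Both strands were searched. The median promoter held 18 CG steps in the members and 12 over all.

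By subunit, the Ets letters stood in 12 of 35 large (34.3%) and 7 of 19 small subunit promoters (36.8%). The NRF-1 letters stood in 7 of 35 and 2 of 19, and AAGATGG in 9 of 35 and 4 of 19. In the 250 bases printed above, Mrpl52 held AAGATGG and an Ets match, and Mrps18a and Mrps18c held an Ets match each. Mrps18b held the NRF-1 letters there, and Mrpl1 held none of these motifs. Over the full 300 bases Mrps18b also held an Ets match and AAGATGG, Mrps18a also AAGATGG, and Mrpl52 a further Ets match. Members with the Ets letters had a median difference of -0.24 log2 (19 genes) and those without -0.11 log2 (35 genes). For the NRF-1 letters the medians were 0.04 log2 (9 genes) and -0.24 log2 (45 genes). For AAGATGG they were -0.11 log2 (13 genes) and -0.23 log2 (41 genes), and for TATAAA -0.05 log2 (7 genes) and -0.24 log2 (47 genes). The ranges overlapped for every motif, and no gap was tested. A match is a description of letters and was not measured as a binding site. Of the factors named for these motifs, Nrf1 differed by -0.10 log2 and Gabpa by -0.40 log2.

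Some members share a start region with another gene. Of the 54 members, 17 (31.5%) had a protein-coding start on the opposite strand within 1000 bases upstream, or overlapping by up to 200 bases, beside 7.4% of all protein-coding genes. Mrpl46 and Mrps11, one from each subunit, are such neighbours of one another, and read 810 and 972 units (0.01 log2) and 1541 and 1779 units (-0.05 log2). For 12 of the 17 the neighbour was above background on both arrays. Of these neighbours 2 were past 2-fold, beside 20.8% of all genes: Klc4 beside Mrpl2 (1.15 and 0.15 log2) and Pnpla7 beside Mrpl41 (1.14 and 0.07 log2). In both pairs the ribosomal gene lay within its error of 0. Ppp1r10, which faces Mrps18b, differed by 0.41 log2, and the cytosolic chaperonin gene Tcp1, which faces Mrpl18, by -0.92 log2.

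The cultures differed in other ways on the same arrays. Sums of signal in this paragraph are before scaling. Of 11 stromal markers 10 were above background on both, and Vcam1 in transgenic only (at least 5.14-fold higher). They summed to 458564 units in control and 330676 in transgenic, of which Col1a1 gave 111314 and 86945 and Col1a2 194668 and 109843. After scaling, 5 of the 10 lay above 0 and 5 below. Eng (2.38 log2) and Pdgfra (1.72 log2) were past 2-fold upwards, and Itgb1 (-1.31 log2) and Col1a2 (-1.08 log2) downwards. Over all genes 10.5% were at least 2-fold higher and 10.3% lower. Neither array showed the blood markers Ptprc, Cd34 or Itgam well above background. Macrophage markers were above background in control for 10 of 10 and in transgenic for 9 of 10 genes, with a summed signal of 17890 units in control and 5549 in transgenic. Of the 9 on both, 6 were at least 2-fold lower and 2 higher. Erythroid markers summed to 2086 and 11409 units, of which Ahsp gave 444 and 9597 units. Hba-a1 read 1576 and 1612 units (-0.22 log2), Hbb-b1 59.9 and 185 units (1.38 log2), and Alas2 was not well above background. Of 5 endothelial markers only Erg and Cdh5 were above background on both arrays, and Kdr, Pecam1 and Tek were on neither. The 5 summed to 786 and 219 units, of which Erg gave 556 and 31.5 units. Of 5 measured proliferation genes, 3 passed 2-fold downwards and 1 upwards, with sums of 1931 and 3236 units, of which Mcm7 gave 609 and 2061 units. Their part in the members' differences was not tested.

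The members' medians under each processing choice are plotted side by side.

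**Figure D5:**
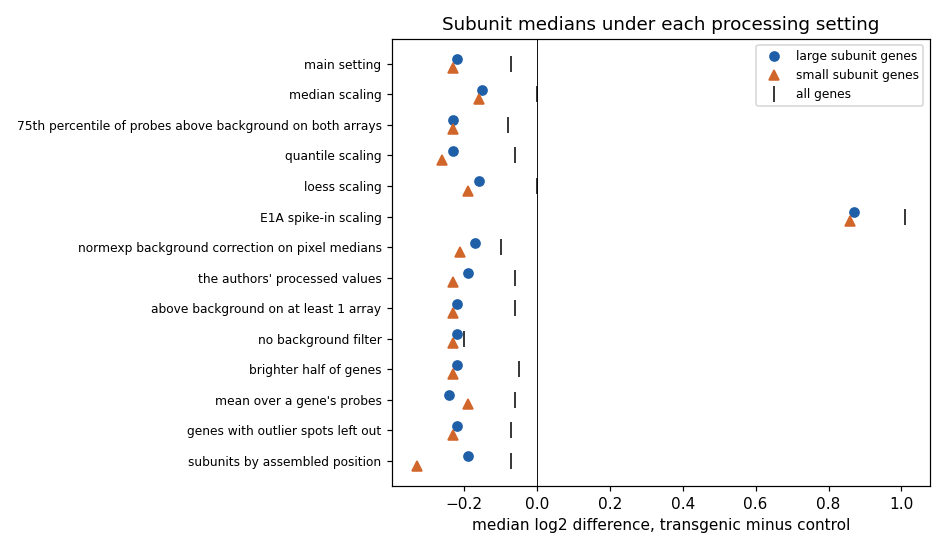
Median log2 difference, transgenic minus control, of large subunit genes (circles), small subunit genes (triangles) and all genes (ticks) under the main setting and each alternative. Both subunit medians stay between -0.33 and -0.15 log2 except with spike-in scaling, where they are 0.87 and 0.86 log2 and the median of all genes is 1.01. The other background filters and the omission of outlier spots could not change the subunit medians.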

How the data were processed

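Per the file headers, the deposited scanner files come from version 11.0.1.1 of Agilent's Feature Extraction program, which gives the intensity of each spot with background subtracted and no normalization between arrays. Both arrays lay on 1 slide, designed on the rat build rn4. The authors also deposited log2 processed values for 23153 probes. Their normalization and centring are not given in the sources used here; their column medians were 7.20 and 7.18, and their differences followed those computed here (r = 0.978 across probes above background on both arrays, which are not replicates), in the same direction. They served as an alternative.

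Outlier spots (446 in control, 505 in transgenic) were left out of 58717 non-control spots per array and no spot was saturated. Log2 signals were averaged per probe and each array's 75th percentile (905 and 1080 units) was subtracted. Well above background means that more than 50% of a probe's spots were, as for 60.2% and 60.8% of 30367 probes. The brightest probe stood for a gene. Unversioned accessions named 18005 probes through RefSeq (GRCr8). An accession that received no symbol was kept as a gene of its own in the all-gene figures. A gene above background on 1 array only gets a fold of at least some size: the dim array's value is its own signal or, if that is lower, the dimmest signal still above background there. The cytosolic list left out S6 kinases and the respiratory list left out assembly factors. Values in full were given for the 10 highest and 10 lowest members, members whose probes disagreed, the S18 paralogues and Mrps30, and up to 4 genes of each other list by size of difference; other names, such as Dap3, Nrf1, Gabpa, single marker genes, Rpl39l1, Rpl3l and genes beside members, were chosen after values were seen. The members and lists were chosen with earlier results of these data known. The steps were also run on simulated arrays with planted differences well past 2-fold. That checks the code and says nothing about the smaller differences described here. Tools were Python 3.11.15, pandas 2.3.3, R 4.3.3 and limma 3.58.1 (quantile, loess and normexp alternatives).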

Additional observations from a re-analysis of the deposited data

How the results depend on the processing

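The gap between the medians of large and small subunit genes was 0.01 log2. Over the 13 alternatives run for it, it ranged from -0.05 log2 (mean over a gene's probes) to 0.13 log2 (subunits by assembled position). Several of these could not move the gap. Median, percentile and spike-in scaling shift every gene alike, and the other background filters and the omission of outlier spots kept the same 66 members and values. The narrow range is therefore no measure of stability. With E1A spike-in scaling the medians were 0.87 log2 (large subunit), 0.86 (small subunit), 0.74 (translation factors), 1.06 (assembly factors) and 0.91 (aminoacyl-tRNA synthetases), with 23 members at least 2-fold higher and 0 lower, since that scaling moves every gene by the same amount. The count of members lower was 2 with quantile scaling and 2 with the percentile taken over probes above background on both arrays, where Mrpl48 passed the limit. A 1.5-fold size rule gave 3 higher and 12 lower, and a 3-fold rule 0 and 0. Of 916 values of single members under an alternative, 68 moved by more than their error, 66 of them with spike-in scaling. The others were Mrpl35 with the mean over its probes (-0.70 log2) and Mrpl47 with the authors' values (-0.11 log2). Many of the 916 could not move. The size rules, the other background filters, the brighter genes and the omission of outlier spots leave each member's value as it was. The count of unmoved values is therefore no measure of stability. Only Mrpl52 and Mrpl1 had a call in the main setting, and neither changed sign. Normexp correction with an offset of 50, chosen after seeing the data in this form, used pixel medians because the planned mean signal was not in the files used here. No paired analysis was possible because each group had 1 array. With 1 array a group, no value here separates the transgenes from chance differences between cultures.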
